A study of Mus musculus with 8 samples.

Results

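The transporters described here are 8 genes of the blood-brain barrier, 4 ABC pumps (Abcb1a, Abcg2, Abcc4 and Abcc1) and 4 organic anion carriers (Slco1a4, Slco1c1, Slco2b1 and Slc22a8). They were taken by gene symbol from a table of 55780 genes, and all 8 symbols were found once. The ABC pumps are primary transporters that use ATP to move drugs and conjugates out of cells. At the luminal face of brain capillaries, P-glycoprotein and the breast cancer resistance protein return many drugs to the blood. The organic anion carriers exchange bile salts, steroid conjugates, thyroid hormones and many drugs between blood, endothelium and brain.

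The 8 RNA-seq libraries came from the brains of C57BL/6 mice and form the groups Ctrl, labelled untreated, and Ep1, with 4 libraries each. Ep1 1 and 2 were labelled as given PDT at 10 J/cm2 and Ep1 3 and 4 as given PDT at 20 J/cm2. The title speaks of MNP treatment and the design text of magnetic force, so Ep1 is used as a group name. The labels also name brain microvessel endothelial cells. Summed neuron markers nevertheless stood at 1540 to 1693 FPKM in Ctrl, against 129 to 143 FPKM for 17 endothelial markers, so the levels are those of mixed brain tissue. In such samples, fewer cells of a type and less RNA per cell cannot be told apart. FPKM are fragments per kilobase of gene length, scaled by a total for each library, and between 15038147 and 17772972 fragments lay behind each library. Whether each library is a different animal is not stated, and the p-values cover only library-to-library spread, part or all of which may be technical.

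The genes lie on 6 chromosomes, and 2 of them are near neighbours. In GRCm38, Slco1c1 (ENSMUSG00000030235) lies on chromosome 6 at 141524368 to 141570177 on the plus strand. Slco1a4 (ENSMUSG00000030237) follows at 141805440 to 141856199 on the minus strand, 235 kb away, with the liver carrier gene Slco1b2 between them. Slc22a8 (ENSMUSG00000063796) lies on chromosome 19 at 8591254 to 8611835, 6.20 kb from its family member Slc22a6. Abcb1a (ENSMUSG00000040584) lies on chromosome 5 at 8660077 to 8748575, 49.6 kb from its copy Abcb1b. Abcc4 (ENSMUSG00000032849) lies on chromosome 14 at 118482692 to 118706219, Abcc1 (ENSMUSG00000023088) on chromosome 16 at 14361558 to 14475737, Abcg2 (ENSMUSG00000029802) on chromosome 6 at 58584523 to 58695676, and Slco2b1 (ENSMUSG00000030737) on chromosome 7 at 99657804 to 99711340.

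Promoter windows of RefSeq on GRCm38.p6, from 250 bases before to 50 bases after a transcript start, were available for 7 of the 8 genes. Those of the neighbours Slco1a4 (chr6:141856171-141856470, minus strand) and Slco1c1 (chr6:141524104-141524403, plus strand), of Slc22a8 (chr19:8592932-8593231, plus strand) and of Abcc4 (chr14:118706170-118706469, minus strand) are shown, because they belong to the carriers with the largest falls, to the neighbour of one of them that fell less, and to the transporter that rose. Each runs 5′ to 3′ along its gene's strand, and capitals mark matches to the 12 words searched.
Slco1a4: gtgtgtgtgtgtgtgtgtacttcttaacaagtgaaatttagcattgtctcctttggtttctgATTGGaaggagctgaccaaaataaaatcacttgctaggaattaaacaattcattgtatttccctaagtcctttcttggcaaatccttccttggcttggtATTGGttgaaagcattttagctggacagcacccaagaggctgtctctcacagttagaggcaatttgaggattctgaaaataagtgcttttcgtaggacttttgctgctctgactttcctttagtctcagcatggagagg
Slco1c1: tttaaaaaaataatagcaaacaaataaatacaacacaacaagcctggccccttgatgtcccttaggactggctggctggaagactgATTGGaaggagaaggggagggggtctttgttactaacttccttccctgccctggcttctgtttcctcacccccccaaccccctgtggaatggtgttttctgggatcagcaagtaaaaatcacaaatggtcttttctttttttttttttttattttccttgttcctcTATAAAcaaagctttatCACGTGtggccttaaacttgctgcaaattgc
Slc22a8: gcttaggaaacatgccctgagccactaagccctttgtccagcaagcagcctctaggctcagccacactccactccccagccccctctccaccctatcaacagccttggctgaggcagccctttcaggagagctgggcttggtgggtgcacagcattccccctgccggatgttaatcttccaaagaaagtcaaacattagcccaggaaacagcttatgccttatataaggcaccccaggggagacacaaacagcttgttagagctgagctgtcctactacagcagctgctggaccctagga
Abcc4: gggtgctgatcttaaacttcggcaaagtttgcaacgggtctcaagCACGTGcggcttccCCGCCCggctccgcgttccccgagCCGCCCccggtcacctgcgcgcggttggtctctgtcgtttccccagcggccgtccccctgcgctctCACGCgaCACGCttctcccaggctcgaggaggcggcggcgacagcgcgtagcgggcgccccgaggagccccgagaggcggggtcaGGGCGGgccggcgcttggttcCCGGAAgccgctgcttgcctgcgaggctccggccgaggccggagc
The 3 carrier windows held 1 CpG each, while the Abcc4 window held 41, against a median of 7 over 32851 windows. GC content was 40.7% for Slco1a4, 42.0% for Slco1c1, 55.0% for Slc22a8 and 72.7% for Abcc4, with a median of 52.7% over all windows. The windows not shown held 5 CpG for Slco2b1, 3 for Abcg2 and 2 for Abcb1a. The 4 windows shown were chosen by how their genes changed, and a link between CpG content and direction was not tested. The Slco1a4 and Slco1c1 start sites used here lay 21 and 14 bases upstream of the gene starts in the table, and that of Slc22a8 lay 1928 bases downstream.

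The words were searched on both strands. GGGCGG, the GC box, was present in 35.7% of all windows and CCAAT in 37.4%. TATAAA was present in 13.6%, GCGTG, the core bound by the aryl hydrocarbon receptor, in 32.4%, and CCGGAA of ETS factors in 14.9%. CACGTG, an E-box, was present in 7.15%, the TCF and LEF word TTTGAA in 17.9% and their other word, ATCAAAG, in 3.73%, and TGTTTAC of forkhead factors in 3.65%. The AP-1 word TGACTCA, searched also as its reverse complement TGAGTCA and so marking the same places, was present in 5.2%, and the cAMP response word TGACGTCA in 1.79%. Abcc4 matched the GC box, the aryl hydrocarbon receptor core, the ETS word and the E-box. Slco1a4 matched CCAAT alone, Slco1c1 matched CCAAT, the TATA word and the E-box, and the Slc22a8 window matched none of the 12. A match is a run of letters and does not show that a factor binds there.

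Comparing Ep1 with Ctrl asks how much transcript of each transporter treated brain held. Genes whose mean reached 1 FPKM in Ctrl or in Ep1 were tested as log2(FPKM + 1) with limma, a scale that understates the change of low genes, and p-values were adjusted over all 14710 tested genes with Benjamini-Hochberg. Log2 changes are given on this scale, and so differ from the log2 of the percentages and folds of mean FPKM beside them. All 8 transporters were tested. Of them, 6 fell, 1 rose (Abcc4) and 1 did not pass (Abcc1). Among all tested genes 26.1% passed in either direction, 10.6% as lower and 15.5% as higher, and 16.5% passed in either direction without Ep1 4. Of the genes that passed, 59.2% were higher, against 49.4% after quantile normalization and 49.0% without mitochondrial genes and CT010467.1, while the 7 transporters that passed did so in the same direction in both. The groups did not overlap for 7 of the 8 transporters, against 31.8% of all tested genes. The median log2 change was -0.45 for the 8 genes and 0.01 for all tested genes. The 8 genes were chosen with earlier results of these data known, so these contrasts do not describe such transporters in general.

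**Figure D1:**
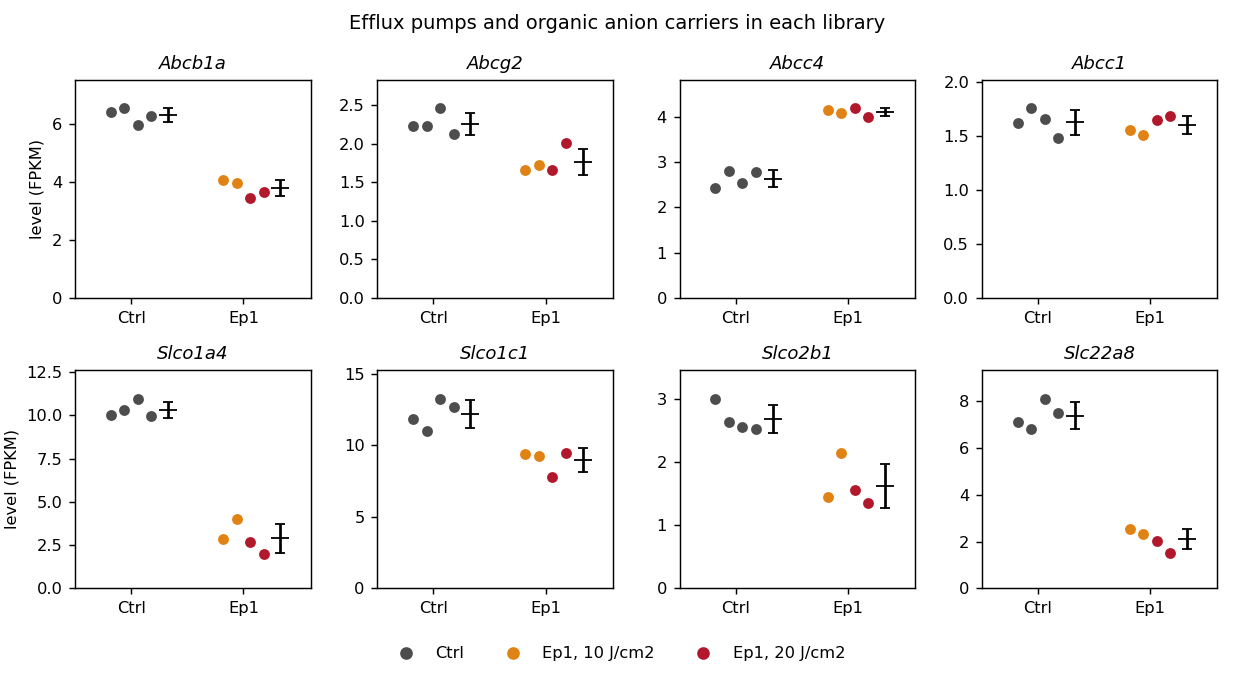
Level in FPKM of each of the 8 transporters in every library, with Ctrl in grey, Ep1 at 10 J/cm2 in orange and Ep1 at 20 J/cm2 in red, and the mean and SD of 4 libraries beside the points. All Ep1 points lie under all Ctrl points for 6 genes, above them for Abcc4, and among them for Abcc1.

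Abcb1a encodes P-glycoprotein of the mouse brain capillary, the pump with the widest drug range. It stood at 6.42, 6.55, 5.99 and 6.29 FPKM in Ctrl 1 to 4 and at 4.09, 3.95, 3.46 and 3.65 FPKM in Ep1 1 to 4. Each Ep1 library was lower than each Ctrl library. The mean fell to 60.0% of Ctrl, with a log2(FPKM + 1) change of -0.61 ± 0.06 (SE, n = 4 each, limma adjusted p = 0.000448). Between 297 and 658 fragments lay behind each value.

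Mice carry a second P-glycoprotein gene, Abcb1b, best known from adrenal, placenta and stressed tissue. It was below the filter, at 0.571 ± 0.0147 FPKM in Ctrl and 0.545 ± 0.0947 in Ep1 (SD, n = 4 each), and its groups overlapped. Abcb1a made up 91.7% ± 0.340 of the summed FPKM of both genes in Ctrl and 87.5% ± 1.56 in Ep1. Ratios between genes were taken within each library as differences of log2(FPKM + 1), so their changes differ from those of a ratio of plain FPKM. The ratio of Abcb1a to Abcb1b was lower by 0.586 ± 0.0472 (SE) on this scale in Ep1, with no overlap (two-sided exact permutation test, p = 0.0286, adjusted p = 0.0286 over 6 gene pairs, the smallest that 4 against 4 allows). In their transcripts, 16.3% of the 50-base words of Abcb1a also occur in Abcb1b, so a part of the fragments could be assigned to either gene.

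Abcg2 encodes the breast cancer resistance protein, the other main pump of the capillary. It stood at 2.22, 2.22, 2.46 and 2.12 FPKM in Ctrl 1 to 4 and at 1.66, 1.72, 1.66 and 2.01 FPKM in Ep1 1 to 4. The groups did not overlap, though Ep1 4 lay close to the lowest Ctrl library. The mean was 78.1% of Ctrl, and the log2 change of -0.24 ± 0.07 passed narrowly (limma adjusted p = 0.0412, n = 4 each). The call was lost without any 1 of the Ctrl libraries and without any 1 of Ep1 1, 2 and 3, with adjusted p between 0.06 and 0.102. Over all alternatives it ran from 0.0147 to 0.112. The ratio of Abcb1a to Abcg2 was also lower in Ep1, by 0.374 ± 0.0845 on the log2(FPKM + 1) scale (exact permutation adjusted p = 0.0286 over 6 pairs).

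Abcc4 encodes MRP4, a pump for cyclic nucleotides, prostaglandins and conjugated steroids that is found in brain endothelium and in choroid plexus. It stood at 2.42, 2.79, 2.53 and 2.79 FPKM in Ctrl 1 to 4 and at 4.16, 4.08, 4.19 and 4.0 FPKM in Ep1 1 to 4. The Ep1 values lay within a narrow band above every Ctrl value. The mean rose 1.56-fold, with a log2(FPKM + 1) change of 0.49 ± 0.06 (SE, limma adjusted p = 0.00102, n = 4 each).

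Abcc1 encodes MRP1, which exports glutathione conjugates and in brain is best known from the basolateral side of the choroid plexus. It stood at 1.62, 1.76, 1.66 and 1.48 FPKM in Ctrl 1 to 4 and at 1.56, 1.51, 1.65 and 1.69 FPKM in Ep1 1 to 4. The groups overlapped throughout. The log2 change was -0.01 with a 95% interval from -0.17 to 0.15 (limma adjusted p = 0.910). Between 376 and 486 fragments lay behind each Ctrl value. The ratio of Abcc4 to Abcc1 was higher in Ep1 by 0.505 ± 0.0576 on the log2(FPKM + 1) scale, with no overlap (exact permutation adjusted p = 0.0286 over 6 pairs).

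The carriers moved further than the pumps in summed level. Slco1a4 encodes Oatp1a4, the rodent carrier of bile salts, steroid conjugates and digoxin at the capillary. It stood at 9.99, 10.3, 11.0 and 9.97 FPKM in Ctrl 1 to 4 and at 2.86, 4.03, 2.71 and 1.97 FPKM in Ep1 1 to 4. The groups lay far apart, with Ep1 2 the highest and Ep1 4 the lowest of the treated libraries. The mean in Ep1 was 28.1% of that in Ctrl, with a log2(FPKM + 1) change of -1.56 ± 0.14 (limma adjusted p = 0.000233, n = 4 each).

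Slc22a8 encodes OAT3, an exchanger that removes neurotransmitter metabolites and anionic drugs from brain and cerebrospinal fluid. It stood at 7.13, 6.83, 8.12 and 7.51 FPKM in Ctrl 1 to 4 and at 2.52, 2.31, 2.05 and 1.53 FPKM in Ep1 1 to 4. The lowest Ctrl library was well above the highest Ep1 library. The mean in Ep1 was 28.5% of Ctrl, with a log2(FPKM + 1) change of -1.44 ± 0.10 (limma adjusted p = 0.000109, n = 4 each). From 483 to 502 fragments lay behind each Ctrl value and 89 to 163 behind each Ep1 value. Its neighbour Slc22a6, which encodes OAT1, fell from 1.59 ± 0.164 to 0.703 ± 0.110 FPKM (limma adjusted p = 0.00198), and passed the filter through Ctrl alone. The ratio of Slc22a8 to Slc22a6 was lower in Ep1 by 0.836 ± 0.135 on the log2(FPKM + 1) scale (exact permutation adjusted p = 0.0286 over 6 pairs), on which the change of the low gene Slc22a6 is the more understated.

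Slco1c1 encodes Oatp1c1, the thyroxine carrier of brain endothelium and, in mice, of astrocytes. It stood at 11.9, 11.0, 13.3 and 12.7 FPKM in Ctrl 1 to 4 and at 9.43, 9.28, 7.77 and 9.5 FPKM in Ep1 1 to 4. The groups did not overlap, and Ep1 3 lay apart below the other treated libraries. The mean fell to 73.7% of Ctrl, with a log2(FPKM + 1) change of -0.40 ± 0.08 (limma adjusted p = 0.00656, n = 4 each). Slco1a4, its neighbour, changed by more. The ratio of Slco1a4 to Slco1c1 was lower in Ep1 by 1.16 ± 0.175 on the log2(FPKM + 1) scale, with no overlap (exact permutation adjusted p = 0.0286 over 6 pairs).

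Slco2b1 encodes Oatp2b1, a carrier of sulfated steroids and statins that is present in brain endothelium and, in mice, in microglia. It stood at 3.0, 2.64, 2.56 and 2.52 FPKM in Ctrl 1 to 4 and at 1.45, 2.14, 1.55 and 1.36 FPKM in Ep1 1 to 4. Ep1 2 came nearest to Ctrl, but the groups did not overlap. The mean fell to 60.6% of Ctrl, with a log2(FPKM + 1) change of -0.50 ± 0.10 (limma adjusted p = 0.00772, n = 4 each). The fall of Slco1a4 exceeded it, with a ratio of Slco1a4 to Slco2b1 lower by 1.07 ± 0.0993 on the log2(FPKM + 1) scale (exact permutation adjusted p = 0.0286 over 6 pairs).

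The order of the levels changed between the groups. In Ctrl it ran from Slco1c1 (12.2 ± 0.989 FPKM, SD) through Slco1a4 (10.3 ± 0.465), Slc22a8 (7.40 ± 0.557) and Abcb1a (6.31 ± 0.242) to Slco2b1 (2.68 ± 0.221), Abcc4 (2.63 ± 0.186), Abcg2 (2.26 ± 0.142) and Abcc1 (1.63 ± 0.116). There the ranges of Slco2b1 and Abcc4 overlapped, as did those of Abcc4 and Abcg2, and the other neighbours in the order were separate. In Ep1 Slco1c1 (9.0 ± 0.820 FPKM) still led, and Abcc4 (4.11 ± 0.0837), Abcb1a (3.79 ± 0.283), Slco1a4 (2.89 ± 0.853), Slc22a8 (2.10 ± 0.429), Abcg2 (1.76 ± 0.164), Slco2b1 (1.62 ± 0.351) and Abcc1 (1.6 ± 0.0824) followed. Apart from Slco1c1, each gene in that order overlapped with the next.

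The 8 genes summed to 44.1 to 47.6 FPKM per library in Ctrl and to 25.0 to 29.0 in Ep1. The 4 pumps summed to 12.6 to 13.3 FPKM in Ctrl and 11.0 to 11.5 in Ep1, and the 4 carriers to 30.8 to 34.9 and 14.1 to 17.8. Most of the difference in the sum thus lay in the carriers. Within the pump sum, the rise of Abcc4 offset a part of the fall of Abcb1a. The share of Slco1a4 in the sum was 22.7% ± 0.631 in Ctrl and 10.7% ± 2.55 in Ep1, and that of Slc22a8 was 16.3% ± 0.694 and 7.80% ± 1.32. Abcc4 held 5.81% ± 0.506 and 15.3% ± 1.12. Abcb1a held 13.9% ± 0.976 and 14.1% ± 0.488, a like share of a smaller sum.

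**Figure D2:**
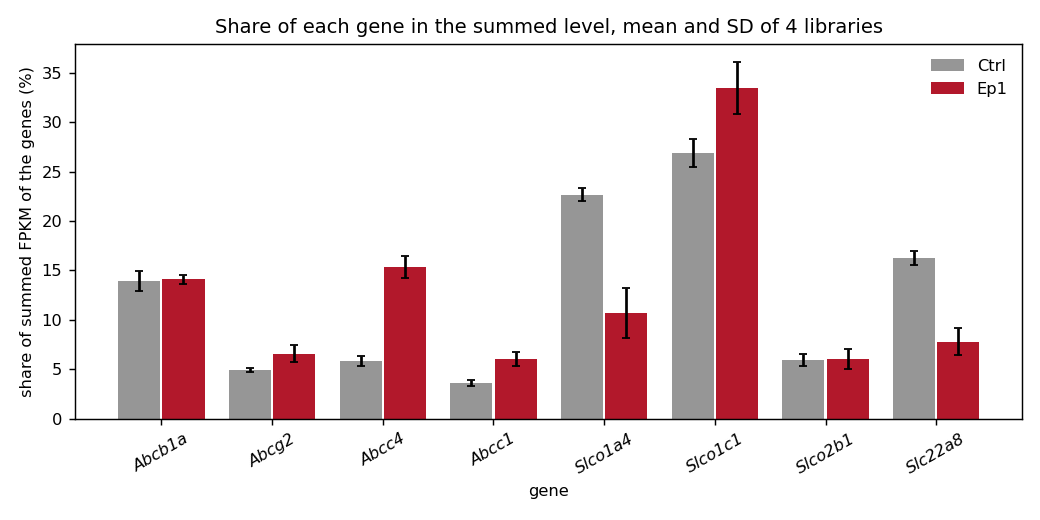
Share of each transporter in the summed FPKM of the 8 genes, in percent, as the mean and SD of 4 Ctrl libraries (grey) and 4 Ep1 libraries (red). The shares of Slco1a4 and Slc22a8 are smaller in Ep1, that of Abcc4 is larger, and that of Abcb1a is 13.9% and 14.1%.

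The energies were compared in a fit with 3 groups, in which each energy has 2 libraries and shares the 4 Ctrl libraries with the other. At 10 J/cm2, 4 of the 8 transporters were called against Ctrl, 3 lower and 1 higher, where 10.5% of all tested genes were, 3.26% as lower and 7.29% as higher. At 20 J/cm2, 6 were called, 5 lower and 1 higher, where 23.5% of tested genes were, 9.66% as lower and 13.9% as higher. Slco1a4 stood at a mean of 3.45 FPKM at 10 J/cm2 and 2.34 at 20 J/cm2, with log2 changes from Ctrl of -1.36 ± 0.13 and -1.77 ± 0.13 (limma adjusted p = 0.00163 and 0.000307). Slc22a8 stood at 2.42 and 1.79 FPKM, with changes of -1.29 ± 0.10 and -1.59 ± 0.10 (limma adjusted p = 0.000931 and 0.000236). Abcb1a stood at 4.02 and 3.56 FPKM, with changes of -0.54 ± 0.07 and -0.68 ± 0.07 (limma adjusted p = 0.00454 and 0.000870). Abcc4 was at nearly one level, 4.12 and 4.10 FPKM, and was called at both energies (limma adjusted p = 0.0101 and 0.00490).

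Slco1c1 and Slco2b1 were called at 20 J/cm2 (limma adjusted p = 0.0136 and 0.0115) and not at 10 J/cm2 (adjusted p = 0.0575 and 0.0660), which does not show that the energies differed. Slco1c1 passed at 10 J/cm2 with quantile normalization, without mitochondrial genes and CT010467.1, with scaling by summed fragments and with voom (adjusted p = 0.0405, 0.0448, 0.037 and 0.0324). Abcg2 was called at neither energy (limma adjusted p = 0.0942 and 0.140). Several of these calls rested on 1 library, with the remaining one of its energy assumed to vary like the other groups. Abcc4 at 10 J/cm2 was lost without Ep1 1 (adjusted p = 0.0959). Slco2b1 at 10 J/cm2 passed without Ep1 2 (adjusted p = 0.0356). At 20 J/cm2, Slco1c1 was lost without Ep1 3 (adjusted p = 0.113), and Slco2b1 without Ep1 3 (adjusted p = 0.0557) or Ep1 4 (adjusted p = 0.107).

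No transporter passed in the direct comparison of 20 with 10 J/cm2 by limma on FPKM, where 0.0068% of all tested genes did. None passed by voom either. At an unadjusted limma p under 0.05 there were 2, Slco1a4 and Slc22a8, beside 6.93% of all tested genes. The log2 difference of Slco1a4 was -0.41, with a 95% interval from -0.74 to -0.07 (adjusted p = 0.671), and that of Slc22a8 was -0.30, from -0.57 to -0.03 (adjusted p = 0.696). For Abcb1a it was -0.14, from -0.32 to 0.04, and for Abcc4 -0.01, from -0.21 to 0.20. Both 20 J/cm2 libraries were below both 10 J/cm2 libraries for 3 of the 8 genes, Abcb1a, Slco1a4 and Slc22a8, an order that 19.7% of all tested genes showed.

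**Figure D3:**
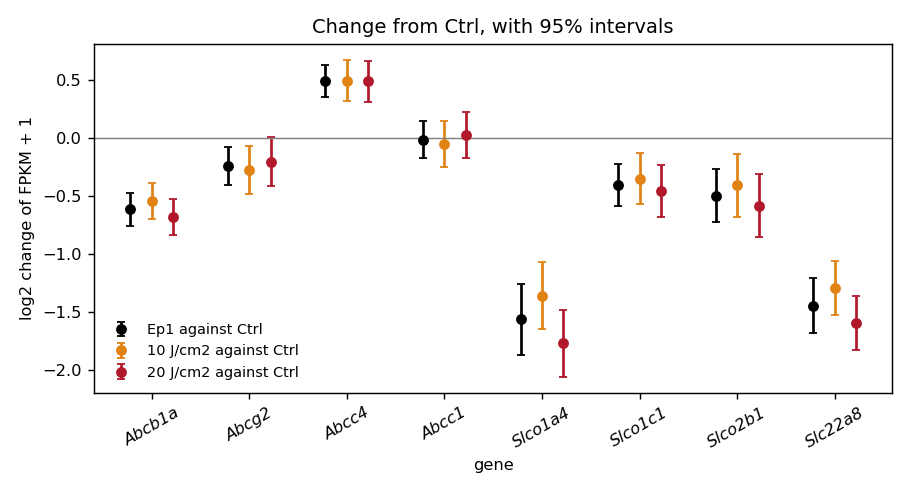
Log2 change of FPKM + 1 from Ctrl for each transporter, over all Ep1 libraries (black), at 10 J/cm2 (orange) and at 20 J/cm2 (red), with 95% intervals from limma. Slco1a4 and Slc22a8 lie lowest, Abcc4 lies above 0, and the intervals of the energies overlap for every gene.

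Other transporters of the same families moved in both directions. Of 21 further ABC transporters 13 were tested, 2 rose and 4 fell, and only 2 fell without Ep1 4. Among all tested genes 15.5% rose and 10.6% fell. The median log2 change of the 13 was -0.06, beside 0.01 for all tested genes. Abca9, 1 of the 4 that fell, went from 1.33 to 0.732 FPKM and passed the filter through Ctrl alone. Abca8b and Abca8a, lipid transporters of the A subfamily, fell from 4.51 ± 0.584 to 2.18 ± 0.585 FPKM (limma adjusted p = 0.00278) and from 1.75 ± 0.259 to 1.02 ± 0.141 (adjusted p = 0.0103). Abca7, a lipid transporter known as a risk gene of Alzheimer disease, rose from 6.28 ± 0.400 to 9.09 ± 1.01 FPKM (adjusted p = 0.00383).

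Of 22 further anion and cation carriers 10 were tested, 4 rose and 2 fell, where 15.5% of all tested genes rose and 10.6% fell. The median of the 10 was 0.08. Besides Slc22a6, the smallest p belonged to Slc22a4, the carrier of ergothioneine, which rose from 2.16 ± 0.228 to 4.50 ± 0.762 FPKM (limma adjusted p = 0.00126). Slco3a1, a carrier of prostaglandins, rose from 3.81 ± 0.459 to 5.41 ± 0.709 (adjusted p = 0.0139). The counts depended on single libraries. Only 2 rose without any 1 of Ctrl 3, Ctrl 4, Ep1 1, Ep1 3 and Ep1 4, and 1 fell without any 1 of these or Ep1 2. Other members of the Slco1 cluster on chromosome 6 were at or near 0. Slco1a1 and Slco1a6 were listed at 0 in every library, and Slco1a5 and Slco1b2 did not exceed 0.102 and 0.117 FPKM.

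Oatp1c1 takes part in the supply of thyroid hormone to brain. Of 11 genes of thyroid hormone transport, conversion and response 10 were tested, 6 rose and 2 fell. The median log2 change was 0.50, beside 0.01 for all tested genes, of which 15.5% rose and 10.6% fell. The fall of the thyroid hormone receptor gene Thrb was lost without any 1 of Ctrl 4, Ep1 3 and Ep1 4. Slc7a8, an amino acid carrier that also takes thyroid hormones, rose from 17.6 ± 1.35 to 28.4 ± 2.39 FPKM (adjusted p = 0.000731). Dio3, the deiodinase that inactivates thyroid hormone, rose from 0.121 ± 0.0792 to 1.33 ± 0.204 FPKM (adjusted p = 0.000511), and passed the filter through Ep1 alone. Dio2, which makes the active hormone in glia, was named after its values were seen, and rose from 10.8 ± 1.40 to 16.3 ± 1.26 FPKM (adjusted p = 0.00278).

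Of 24 receptors and signalling genes known to act on efflux pumps 15 were tested, 3 rose and 1 fell, with a median of 0.13. Among all tested genes 15.5% rose and 10.6% fell. Without Ctrl 4, 2 of the listed genes fell. The xenobiotic receptor genes Nr1i2 and Nr1i3 had at most 1 fragment in any library. Nr3c1, the glucocorticoid receptor gene, fell from 15.7 ± 1.11 to 9.03 ± 0.918 FPKM (limma adjusted p = 0.000475). Tnfrsf1a, the type 1 receptor of tumour necrosis factor, rose from 3.18 ± 0.600 to 8.45 ± 2.06 (adjusted p = 0.00151), and Edn1, the endothelin 1 gene, from 1.52 ± 0.153 to 4.01 ± 1.32 (adjusted p = 0.00482). The aryl hydrocarbon receptor gene Ahr was at 2.17 ± 0.177 and 1.87 ± 0.242 FPKM in Ctrl and Ep1, and Nfe2l2, the Nrf2 gene, at 2.98 ± 0.602 and 3.34 ± 0.494. Neither passed (adjusted p = 0.224 and 0.446), and both were named after their values were seen.

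Of 18 drug-metabolising and conjugating enzymes 17 were tested, 3 rose and 4 fell, with a median of -0.12. That compares with 15.5% higher and 10.6% lower among all tested genes. Ephx1, the microsomal epoxide hydrolase, fell from 11.8 ± 0.332 to 7.62 ± 0.792 FPKM (limma adjusted p = 0.000929), and the cytochrome gene Cyp4x1 from 6.52 ± 0.534 to 4.27 ± 0.314 (adjusted p = 0.00147). Cyp1b1, a cytochrome of brain vessels, rose from 0.623 ± 0.175 to 1.95 ± 0.289 (adjusted p = 0.00111), and passed the filter through Ep1 alone.

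Markers of the cell types that hold these transporters also moved, where 15.5% of all tested genes rose and 10.6% fell. Of 17 endothelial markers 16 were tested, 9 rose and 4 fell, and their sum was 129 to 143 FPKM in Ctrl and 152 to 204 in Ep1. Without Ep1 3 or without Ep1 4, 5 of them rose. Itm2a fell from 25.8 ± 1.58 to 10.9 ± 0.862 FPKM, while Adgrl4 and the lipid carrier gene Mfsd2a rose (limma adjusted p = 4.85e-05, 0.000163 and 0.000512). The sum weighs abundant genes most, such as Slc2a1, at 28.7 FPKM in Ctrl and 45.9 in Ep1. Tie1, Sox17 and Kdr fell besides Itm2a, so the sum is not a measure of endothelial cell content. Of 9 pericyte markers 8 were tested, 4 fell and none rose. Of those that fell, Anpep passed the filter through Ctrl alone, at 1.25 FPKM there and 0.595 in Ep1. Notch3 (limma adjusted p = 0.0445) lost its call in 9 of 17 alternatives. The pericyte sum was 62.2 to 68.7 FPKM in Ctrl and 53.5 to 56.7 in Ep1. Of 11 astrocyte markers 5 rose and 1 fell, with sums of 557 to 577 and 604 to 645 FPKM. Of 10 microglia markers 2 rose and 6 fell, with sums of 128 to 138 and 114 to 130 FPKM. With other scalings the number of astrocyte markers that fell was 3 without mitochondrial genes and CT010467.1, and 2 with quantile normalization, with summed fragments or with voom. No astrocyte marker fell when Ctrl 1, Ctrl 2, Ep1 1, Ep1 3 or Ep1 4 was left out, and 1 of the 2 microglia markers that rose was lost without Ctrl 2, Ep1 3 or Ep1 4. None of the markers in these 4 lists was at 0 in all libraries. Their part in the transporter results was not tested.

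Choroid plexus epithelium, which also holds Slc22a8, Abcc1 and Abcc4, varied between libraries of both groups. Of 12 markers 8 were tested and 1, the potassium channel gene Kcnj13, fell, having passed the filter through Ctrl alone. Without Ep1 2, 2 fell. The median log2 change of the 8 was -0.57, beside 0.01 for all tested genes, and 7 of the 8 were not called. Folr1 and Kcne2, which were not called, also passed the filter through Ctrl alone. Aqp1 was at 1.087 FPKM in Ctrl and 1.095 in Ep1. The sum was 707, 723, 431 and 380 FPKM in Ctrl 1 to 4 and 321, 441, 18.2 and 179 in Ep1 1 to 4, nearly all of it Ttr, the transthyretin gene. Slc22a8 stood at 2.52, 2.31, 2.05 and 1.53 FPKM in Ep1 1 to 4. Ep1 1 and 2, with the higher sums, were the libraries at 10 J/cm2. Choroid plexus content and energy thus cannot be told apart within Ep1. The part of choroid plexus content in the transporter results was not tested. Of 10 neuron markers 1 rose and 1 fell, and neither was called without Ep1 1, Ep1 3 or Ep1 4, the riser not without Ctrl 1 or Ctrl 2, and the other not without Ctrl 4. Of 8 fibroblast markers 6 were tested and 1 rose. Of 5 red blood cell markers 4 rose, with sums of 26.1 to 35.9 FPKM in Ctrl and 88.4 to 295 in Ep1. For these lists too, the shares among all tested genes were 15.5% higher and 10.6% lower.

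**Figure D4:**
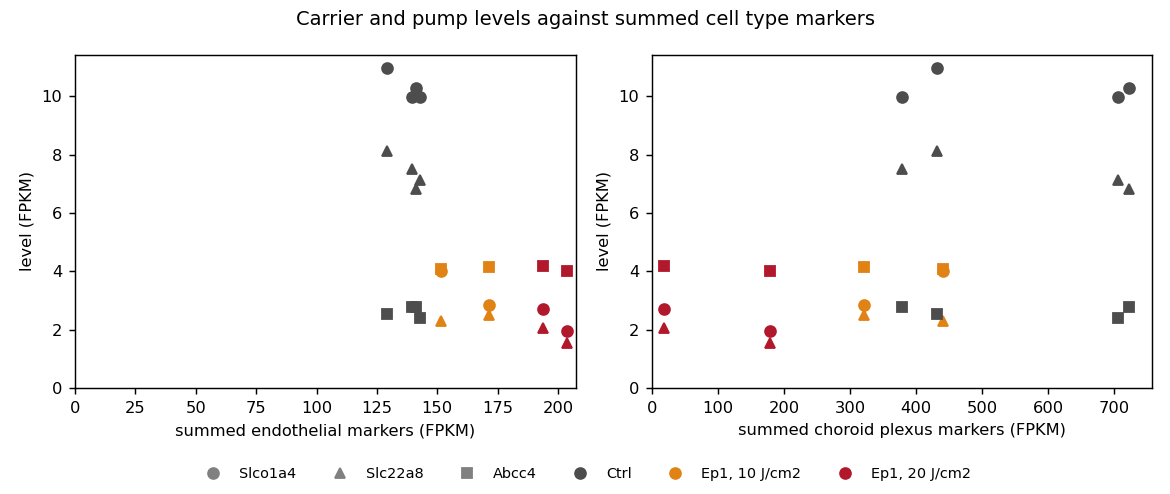
Level in FPKM of Slco1a4 (circles), Slc22a8 (triangles) and Abcc4 (squares) in each library against the summed FPKM of 17 endothelial markers (left) and of 12 choroid plexus markers (right), coloured by group and energy. In Ep1 the carriers lie lower and the endothelial sums higher than in Ctrl, and the choroid plexus sums run from 18.2 to 441 FPKM in Ep1 and from 380 to 723 in Ctrl.

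For each transporter, the 2 tested genes with the most similar profile were found by the root mean square difference of log2(FPKM + 1) over the 8 libraries, centred on the mean of Ctrl. For Slco1a4 and for Slc22a8 the nearest was P2ry12, a receptor gene of microglia, at 0.141 and 0.143, with a level of 13.7 FPKM in Ctrl and 4.11 in Ep1. Next came Npy1r for Slco1a4 at 0.265 and Ddit4l for Slc22a8 at 0.229. The profiles nearest to Abcb1a were those of Vsir at 0.0499 and Rasgrp3 at 0.0651. Abcg2 was nearest to Upp2, Abcc4 to Ccdc134 and Myrip, Abcc1 to Tmem144 and Tmem39a, and Slco2b1 to Eml6 and Iqcc. Slco1c1 was nearest to Pcdhga6, whose fragments may be shared with other genes of its cluster, and Pcdh10. The distances of the 9 genes named for these 5 transporters lay between 0.0307 and 0.0646. The measure is a description of these libraries.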

How the data were processed

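The authors deposited FPKM values per gene for 8 libraries. Per the submitters' processing notes, Bowtie 0.12.2 and the build mm8 are named, with no role. The deposited coordinates matched GRCm38, with 99.4% of 55227 shared identifiers at the GENCODE M21 start and end. Counting tool and strandedness are not given in the sources used here, so overlapping antisense genes were not separated. Columns were assigned to libraries by letter and number, an inference. FPKM multiplied by length gave whole fragments to within 0.01 in every library. Depth was 15038147 to 17772972 fragments, which limits the precision of low genes.

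Ep1 was compared with Ctrl in limma 3.58.1 (R 4.3.3) on log2(FPKM + 1), for genes whose mean reached 1 FPKM in Ctrl or Ep1, with a trended, robust variance and Benjamini-Hochberg at 0.05. Ratios of 6 gene pairs were compared with exact permutation tests (scipy 1.17.1). The members and lists were chosen with earlier results of these data known. Named genes are all members, up to 3 called genes per list with the smallest p, and the 2 nearest profiles per member. Of the genes that this rule gives, 2 are not reported here. Tested on simulated data with 14378 genes, the fit of Ep1 against Ctrl called 82.1% of the genes altered 1.5-fold, 98.5% of those altered 2-fold and 97.0% of those altered 4-fold, and 15 of 200 calls were false. The simulation altered 200 genes, each with a mean of at least 2 FPKM, and gave every gene the same dispersion between libraries. Its rates therefore need not hold for these libraries or for lower genes. Alternatives changed the pseudocount, filter, scaling, variance model, weights, replicate block and each library in turn. Scaling by summed fragments was added after the data were seen.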

Additional observations from a re-analysis of the deposited data

Results flagged for a closer look

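Of 16 sets of 4 values, 8 transporters in 2 groups, 2 held a library that stood apart, where chance gives about 1 in 20. Abcg2 in Ep1 had its highest library, Ep1 4 at 2.01 FPKM, separated from the next by 0.835 of the range of the group. Slco1c1 in Ep1 had its lowest library, Ep1 3 at 7.77 FPKM, separated by 0.872 of the range. Without Ep1 4, Abcg2 stayed called, and without Ep1 3, Slco1c1 stayed called in the comparison of Ep1 with Ctrl.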

How the results depend on the processing

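The number of transporters called in Ep1 against Ctrl was 7, and 6 or 7 in all 17 alternatives. Abcb1a, Abcc4, Slco1a4, Slco1c1, Slco2b1 and Slc22a8 kept direction and call in each of them, with Slco1a4 between -1.86 and -1.44 and Slc22a8 between -1.82 and -1.35. Abcg2 lost its call without a filter on low values (log2 change -0.24, adjusted p = 0.0789) and in the fit with a replicate block (-0.24, adjusted p = 0.112), and ran from -0.28 to -0.21 when single libraries were left out. With voom on recovered fragments, 7 were called at 10 J/cm2, and with the replicate block 2. The number of genes called overall ran from 2427 to 4141 when single libraries were left out, and 59.2% of called genes were higher, against 49.4% with quantile normalization, 49.0% without mitochondrial genes and CT010467.1, and 50.6% with scaling by summed fragments. The causes were not tested. The 6 pair differences were all called with 4 against 4 libraries. Without 1 library the number called was 0 to 0, because 3 against 4 allows no p under 0.0571, and with the replicate block it was 0, because 4 sign flips allow none under 0.125. Every pair difference kept its direction. Correlations of same-numbered libraries, as deviations from their group means, ran from -0.0536 to 0.0602. Those of differently numbered libraries ran from -0.0747 to 0.0423. This cannot exclude a pairing by number, because the deviations in Ep1 also hold any difference between the energies. With the block Slco2b1 at 20 J/cm2 and Abcb1a and Abcc4 at 10 J/cm2 also lost their calls (adjusted p = 0.0675, 0.0521 and 0.0899). The same block gave 4 choroid plexus markers that fell, against 1 without it. Depth limits the low genes most, such as Abcb1b with 61 to 92 fragments in Ep1.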

Other observations

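The totals by which the deposited FPKM were scaled were not the summed fragments of the table. They ran from 0.984 to 1.031 of those sums, and were proportional to median-ratio size factors over the genes above 0 in all libraries, to within 3.5e-06%.

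The RefSeq promoter window of Abcb1a (chromosome 5 at 8566841 to 8567140) lay 92986 bases upstream of the gene start in the deposited table, so that the table's gene model did not include that start site. It held 2 CpG. The deposited length of Abcb1a was 5480 bases.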
